A study of Mus musculus with 12 samples.

Results

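Interferon-stimulated genes are the genes that cells switch on when type I interferon (IFN-α and IFN-β) or interferon-γ binds its receptor. A panel of 39 of them was taken by gene name from the 29608 genes on the array, and its expression was compared in the hippocampus of MRL/lpr, Fn14ko and MRL/+ mice. In MRL/lpr mice the lpr mutation inactivates *Fas*, the death receptor of lymphocytes, and the animals develop a lupus-like disease with neuropsychiatric signs. Fn14ko mice carry the same *Fas* mutation on the same background and lack, in addition, *Tnfrsf12a*, the gene of the TWEAK receptor Fn14. MRL/+ (MRL/MpJ) mice have both genes intact and were bought from another source than the 2 lupus-prone phenotypes, which were bred together as littermates. There were 4 adult female mice of each phenotype, 12 in all, about 12 weeks old and all in diestrus, and the RNA of each hippocampus was measured separately.

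In the type I response, the receptor activates the kinases JAK1 and TYK2, and the transcription factor complex ISGF3, of which STAT2 and IRF9 are subunits, then binds a DNA element called the ISRE. Interferon-γ acts mainly through another element, GAS. The induced proteins include effectors that bind viral RNA (IFIT proteins, oligoadenylate synthetases, the kinase encoded by *Eif2ak2*), membrane proteins that hold back viruses (tetherin, encoded by *Bst2*, and *Ifitm3*), GTPases (*Gbp2*, *Igtp*), and the ubiquitin-like ISG15 with the enzymes that attach and remove it. A raised level of these transcripts in blood is a well-known feature of lupus, and in brain tissue they are made by microglia, endothelium, choroid plexus and infiltrating leukocytes as well as by neurons and astrocytes.

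The regulatory element that gives the panel its name can be seen in the promoters themselves. RefSeq windows of GRCm38.p6, from 250 bases before to 50 bases after a transcription start, were found for 31 of the 39 members. The ISRE core, searched on both strands as GAAA, any 2 bases and GAAA again, lay in the window of 14 of the 31 (45.2%), compared with 1079 of 27025 genes in all (3.99%). The GAS core, searched as TTCNNNGAA, which reads the same on both strands in its fixed letters, lay in 9 of the 31 (29.0%), compared with 2582 of all genes (9.55%). Both cores were present in 5 members, and they overlapped in 2, *Bst2* and *Ifitm3*. A match is a description of the letters and no measurement of binding. The 8 stretches below are of members on whose values the results turn, each on the strand of its gene, 5′ to 3′, with the ISRE core letters in capitals (a run of TTTC repeats is the core on the opposite strand). They lie at chr4:156200860-156200911 (*Isg15*, minus strand), chr19:34640770-34640828 (*Ifit1*, plus), chr19:34583358-34583431 (*Ifit3*, plus), chr8:71537572-71537617 (*Bst2*, minus), chr3:142620589-142620628 (*Gbp2*, plus), chr11:58199507-58199546 (*Igtp*, plus), chr12:26456548-26456587 (*Rsad2*, minus) and chr7:141010715-141010743 (*Ifitm3*, minus).
Isg15: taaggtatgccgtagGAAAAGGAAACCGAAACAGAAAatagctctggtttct
Ifit1: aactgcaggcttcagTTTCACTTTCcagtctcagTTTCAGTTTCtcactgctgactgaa
Ifit3: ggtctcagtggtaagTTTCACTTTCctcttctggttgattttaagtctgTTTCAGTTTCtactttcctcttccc
Bst2: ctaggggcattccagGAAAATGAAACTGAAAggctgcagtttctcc
Gbp2: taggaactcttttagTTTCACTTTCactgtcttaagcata
Igtp: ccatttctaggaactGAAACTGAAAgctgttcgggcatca
Rsad2: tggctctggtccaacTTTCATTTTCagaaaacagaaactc
Ifitm3: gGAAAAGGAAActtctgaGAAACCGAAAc
The 3 overlapping or adjoining cores of *Isg15* run from base -78 to base -57 counted from the start, and the 2 of *Ifit1* from -104 to -76. In *Ifitm3* both cores lie after the start, at bases 3 to 29.

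Expression was read from 6 Agilent 2-colour arrays with 60-base probes, each shared by 2 mice of a phenotype, with odd-numbered mice in Cy3 and even-numbered mice in Cy5. A level is the spot intensity above local background divided by the channel median, so a level of 1 is a typical well-measured spot. Levels of different probes are not compared with each other. MRL/lpr mice 3 and 4 shared an array of weak signal, on which the foreground of the median spot reached 1.93 and 1.73 times background (the other 10 samples, 4.42 to 12.6 times), and the 95th percentile of negative-control spots stood at a level of 1.51 and 2.55. In the MRL/+ mice read in Cy5 (2 and 4) that percentile stood at 0.309 and 0.23, and it ran from 0.00333 to 0.108 in the 8 remaining samples outside the weak array. The members at or below that percentile numbered 32 and 33 of 39 in MRL/lpr 3 and 4, 15 and 22 on the other array of that phenotype, 30 and 31 in MRL/+ 2 and 4, and 0 to 11 in mice labelled Fn14ko and MRL/+ 1 and 3. *Isg15*, *Ifitm3* and *Trim25* were called well above background by the scanner software in all 12 mice, and *Oas3* and *Mx1* in none. The arrays of a phenotype shared 1 slide and 1 scan date, a different one for each phenotype, so slide and phenotype cannot be told apart. The labels' descriptions mention cortex, whereas source and tissue give hippocampus. Of 6 markers of hippocampal neurons, 5 were higher in MRL/lpr 1 and 2 than in Fn14ko (limma without the weak array, 5.46% of all genes). Against MRL/+ 2 of the 6 were higher (3.81% of all genes). *Prox1*, of dentate granule cells, read 0.177 and 0.157 in MRL/lpr 1 and 2 but at most 0.0237 in mice labelled Fn14ko. The probe for *Tnfrsf12a* read 0.439, 0.307, 0.241 and 0.247 in MRL/lpr 1 to 4, 0.177, 0.16, 0.189 and 0.151 in mice labelled Fn14ko and 0.283, 0.629, 0.503 and 0.502 in MRL/+. It was thus lowest in Fn14ko but well above background in all 4 of these mice, which are therefore called the mice labelled Fn14ko where a direction is drawn. *Fas* was well above background in 1, 4 and 2 mice of MRL/lpr, Fn14ko and MRL/+.

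No interferon-stimulated gene of the panel passed the test in any of the 3 comparisons. With limma on log2 levels, dye as a covariate, the array as a random block and Benjamini-Hochberg adjustment over 29608 genes, 0 of 39 members were called between MRL/lpr and MRL/+, where 0.405% of all genes were called. The count was also 0 between MRL/lpr and Fn14ko (0.341% of all genes) and between Fn14ko and MRL/+ (0% of all genes). At an unadjusted p under 0.05 the counts were 8, 9 and 0 members, against 11.4%, 16.7% and 3.12% of all genes. The smallest adjusted p of a member was 0.224 for *Gbp3* in the first comparison and 0.0613 for *Ifitm3* in the second. Deviations shared by the 2 mice of an array had a correlation of 0.569 in this fit. With the array no longer a block 0, 3 and 0 members were called, among 2.62%, 6.03% and 0.142% of all genes. In Cy3 alone and without the weak array (chosen after seeing the data) the counts were 6, 5 and 0, among 8.51%, 7.7% and 0.0271%. There MRL/lpr is 1 mouse, which is assumed to vary like the mice of the other phenotypes. Nothing in these counts shows that the members did not differ, since only 2 arrays stand behind each phenotype.

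In both comparisons of MRL/lpr more members lay above 0 than below. Their median log2 fold change came to 0.74 for MRL/lpr over MRL/+, with 32 of 39 members above 0, whereas the median of all genes was 0.20 with 63.4% above 0. Between MRL/lpr and Fn14ko the members' median was 1.41 with 36 above 0, beside 1.33 and 76.0% for all genes. Between Fn14ko and MRL/+ it was -0.48 with 9 above 0, beside -0.97 and 15.7%. The shift was thus in part one of all genes, and against Fn14ko the median of the members was close to that of all genes (1.41 and 1.33). Without the weak array (limma, dye as a covariate, no array block, an alternative chosen after seeing the data) the median of all genes was 0.00 against Fn14ko and that of the members 0.42, with 32 of 39 above 0. Against MRL/+ these medians were -0.69 for all genes and 0.05 for the members. Scaling each channel by the median of all its spots, with all 12 mice, turned the members' median to -0.05 against Fn14ko (all genes -0.10) and to 0.47 between Fn14ko and MRL/+ (all genes -0.02), so the direction of these medians rests on the scaling.

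**Figure D1:**
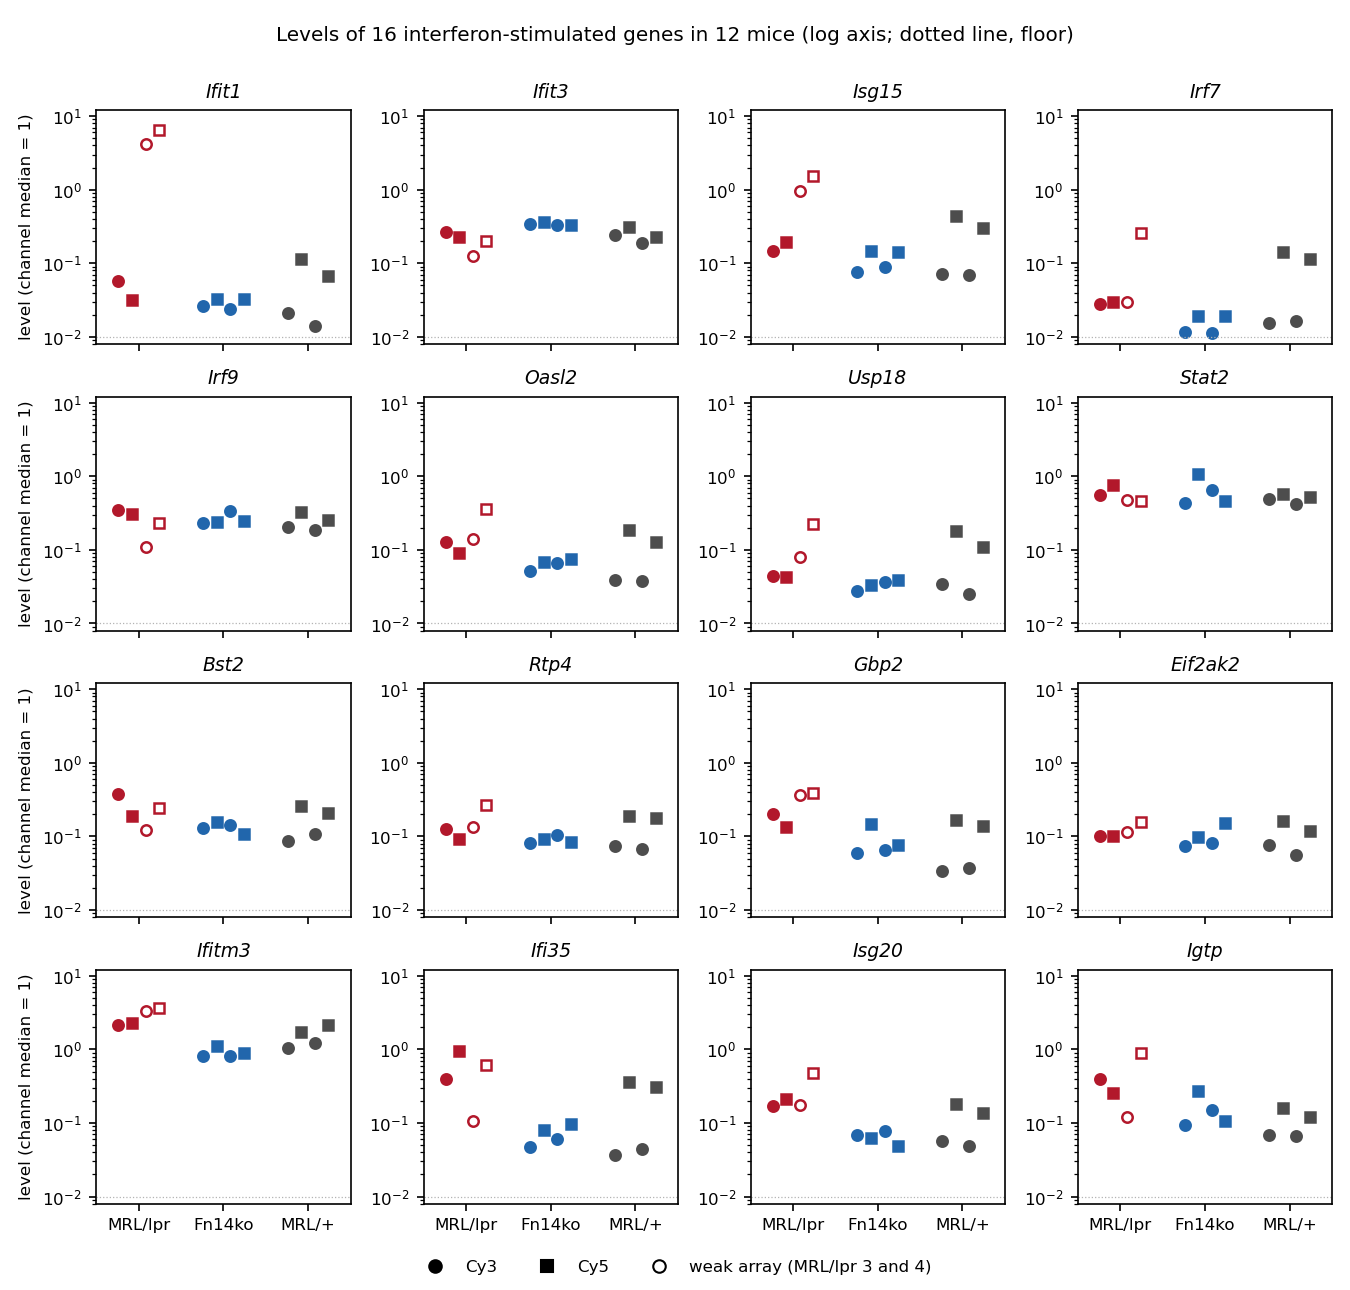
Levels of 16 interferon-stimulated genes (vertical, log axis, channel median = 1) in the 12 mice, by phenotype and dye; each point is 1 mouse and the dotted line is the floor of 1% of the median. Ifit1 reached 4.16 and 6.55 on the weak array only, whereas all 4 MRL/lpr levels of Ifitm3 (2.12 to 3.61) lie above the 4 of Fn14ko (0.814 to 1.12).

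The widest differences within the MRL/lpr phenotype were those between its 2 arrays. *Ifit1*, which binds viral RNA that lacks 2′-O methylation at its cap, read 0.0577, 0.0317, 4.16 and 6.55 in MRL/lpr 1 to 4, 0.0262, 0.0325, 0.0243 and 0.0331 in mice labelled Fn14ko, and 0.0211, 0.115, 0.0141 and 0.0667 in MRL/+. Only MRL/lpr 3 and 4 stood apart, by 6.93 on the log2 scale over MRL/lpr 1 and 2, and the other 10 mice overlapped. The log2 fold change was 4.04 against Fn14ko (SE 1.42, adjusted p = 0.184, limma) and 3.60 against MRL/+ (SE 1.42, adjusted p = 0.304), and without the weak array 0.57 (SE 0.69) and 0.14 (SE 0.69). Of the members named from here on, *Oas2*, *Ifit2*, *Cmpk2*, *Zbp1*, *Gbp3*, *Trim25*, *Ifi35*, *Isg20*, *Igtp*, *Rsad2*, *Lgals3bp*, *Irf1*, *Herc6*, *Dtx3l* and *Sp100*, and those in lists of counts, were chosen after their values were seen.

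*Oas2*, a synthetase of the 2′-5′ oligoadenylates that activate RNase L, was 6.05 higher (log2) on the weak array than on the other MRL/lpr array, with 2.23 and 4.61 against 0.0455 and 0.0517. The corresponding differences were 4.77 for *Ifit2*, 4.47 for *Cmpk2*, a mitochondrial nucleotide kinase, 3.45 for *Zbp1*, a sensor of Z-form nucleic acid, 3.04 for *Gbp3*, 2.84 for *Isg15* and 2.26 for *Trim25*. The median difference over all spots of the 2 arrays was 1.92. In each of these genes both mice of the weak array, read in different dyes from the same spots, were above MRL/lpr 1 and 2. The 95th percentile of negative controls stood at 1.51 and 2.55 in these mice. *Zbp1* (0.198 and 0.422) and *Isg15* (0.96 and 1.54) were under it in both, and *Gbp3* (2.26) in MRL/lpr 4.

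**Figure D2:**
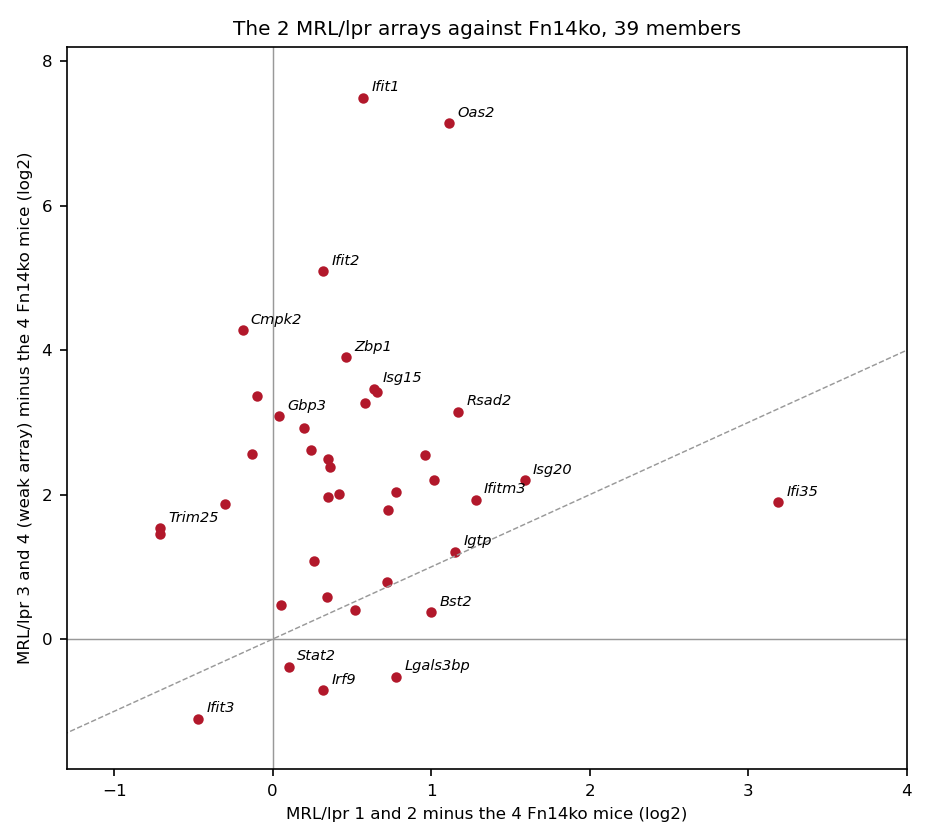
Log2 difference of each of the 39 members from the mean of the 4 Fn14ko mice, for MRL/lpr 1 and 2 (horizontal) and for MRL/lpr 3 and 4 on the weak array (vertical); the dashed line marks equal differences. Ifit1, Oas2, Ifit2 and Cmpk2 lie far above the line, at -0.19 to 1.11 horizontally, and Ifi35 lies farthest to the right (3.19).

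What surrounded these spots on the glass was high as well. For each of the 73 member spots, the same difference between the 2 MRL/lpr arrays was taken for spots of other genes within 6 rows and 3 columns. Around *Ifit1* (6.93) the median neighbour differed by 5.83, around *Isg15* (6.29 for its higher spot) by 4.30, around *Cmpk2* (4.61) by 4.62, around *Ifit2* (4.77) by 3.86 and around *Gbp3* (3.04) by 3.01. Across the panel the neighbours' medians ran from -0.09 to 5.83, and 48 of 73 member spots lay within the quartiles of their own neighbours. The spots above 95% of their neighbours numbered 2, *Oas2* (6.05 beside 2.71) and 1 spot of *Zbp1* (6.50 beside 2.54). That *Zbp1* spot carried an outlier flag in MRL/lpr 3, and its probe is left out of the *Zbp1* levels. The differences in this paragraph include spots with such a flag. The probes of a gene differed in this difference, with 4.61 and 3.07 for those of *Cmpk2* and 6.29 and 1.27 for those of *Isg15*.

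**Figure D3:**
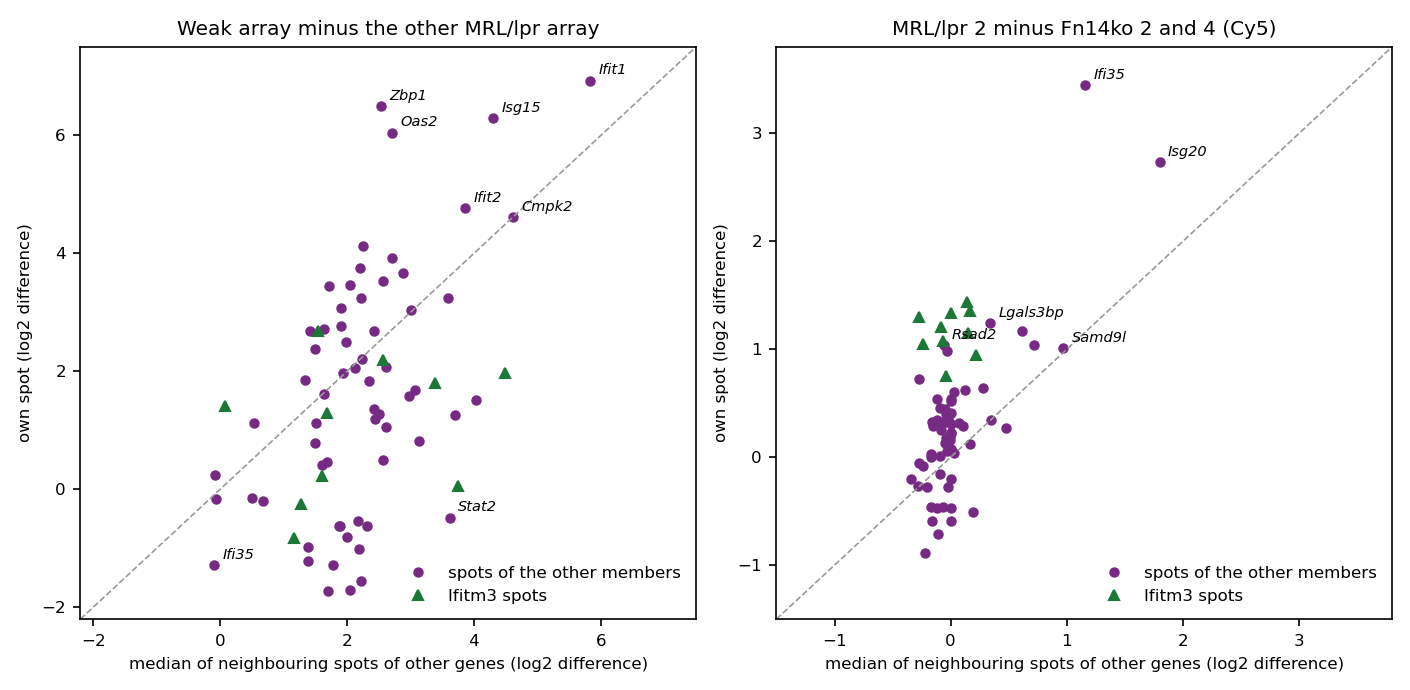
Log2 difference of each member spot (vertical) beside the median difference of neighbouring spots of other genes (horizontal), for the weak array minus the other MRL/lpr array (left) and for MRL/lpr 2 minus Fn14ko 2 and 4 in Cy5 (right); triangles are the 10 Ifitm3 spots and the dashed line marks equality. On the left Ifit1, Isg15 and Cmpk2 have neighbours at 4.30 to 5.83, and on the right most Ifitm3 spots lie about 1 above neighbours near 0.

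*Ifitm3* and *Igtp* are each measured by 1 probe printed at 10 places, so the evenness of an array can be read from them. In the 8 mice MRL/lpr 1 and 2, Fn14ko 1 to 4 and MRL/+ 1 and 3, the highest *Ifitm3* spot was 1.63 to 2.54 times the lowest. On the weak array the ratio was 6.81 and 8.05, and in MRL/+ 2 and 4 it was 17.7 and 15.3. The spots of *Igtp* spread 33.7-fold and 20.0-fold on the weak array, compared with 1.72-fold to 2.53-fold in the other 10 mice, MRL/+ 2 and 4 included. These ratios include spots with an outlier flag, which the levels leave out, and without such spots the ratios on the weak array were 3.49 and 5.23 for *Ifitm3* and 3.84 and 20.0 for *Igtp*.

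**Figure D4:**
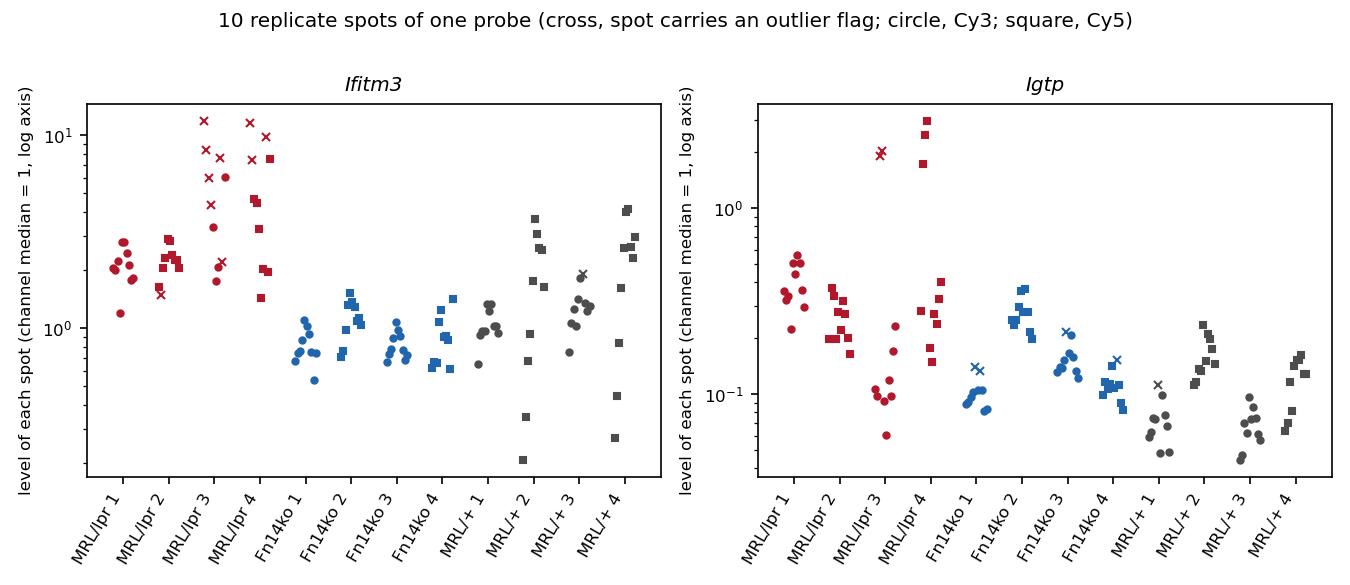
Level of each of the 10 replicate spots (vertical, log axis, channel median = 1) of the Ifitm3 and Igtp probes in the 12 mice; crosses carry an outlier flag. The Ifitm3 spots of MRL/lpr 1 and 2 (1.2 to 2.9) lie above most spots of the Fn14ko mice (0.538 to 1.52), while the spots of the weak array and of MRL/+ 2 and 4 scatter widely.

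On the other MRL/lpr array, more members lay above the mice labelled Fn14ko than below in both dyes. Of the 39 members, however, 15 in MRL/lpr 1 and 22 in MRL/lpr 2 were at or below the 95th percentile of negative controls (0.0555 and 0.108). In Cy3, MRL/lpr 1 was above Fn14ko 1 and 3 for 30 of 39 members (32.9% of all genes), and in Cy5, MRL/lpr 2 was above Fn14ko 2 and 4 for 22 (35.1% of all genes). Both held for 21 members (23.6% of all genes), and the opposite in both dyes for 3, *Ifit3*, *Trim25* and *Herc6* (14.8%). The median member difference was 0.68 in Cy3 and 0.22 in Cy5, with medians of all genes of 0.00 and -0.02. Levels in the 4 MRL/lpr mice exceeded those in all 4 mice labelled Fn14ko for 14 members, among 12.5% of all genes, and *Ifit3* alone fell below them (4.95% of all genes). MRL/lpr 3 and 4 by themselves were above all 4 for 29 members and for 66.2% of all genes. In those 2 mice 32 and 33 of the 39 members were at or below the 95th percentile of negative controls. Members whose 4 MRL/lpr mice are described below as above Fn14ko are among these 14. The test without the weak array called 5 members against Fn14ko, among 7.92% of all genes: *Ifi35*, *Ifitm3*, *Isg20* and *Lgals3bp* higher (5.46% of all genes) and *Trim25* lower (2.46%). MRL/lpr then rested on 1 array, so array and phenotype cannot be told apart there, and with the array kept as a block (estimated correlation -0.751) 16 members and 22.2% of all genes were called.

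Among the restriction factors of the membrane, *Ifitm3*, which blocks fusion of viruses with the endosome, was the best-measured difference of the panel. Its levels were 2.12, 2.29, 3.31 and 3.61 in MRL/lpr 1 to 4, 0.814, 1.12, 0.821 and 0.897 in mice labelled Fn14ko, and 1.04, 1.74, 1.24 and 2.17 in MRL/+. All 4 MRL/lpr mice were above all 4 labelled Fn14ko, and MRL/lpr 1 fell below MRL/+ 4. Group means were 2.83 ± 0.735, 0.913 ± 0.144 and 1.55 ± 0.51 (SD, n = 4 mice each). The log2 fold change was 1.61 against Fn14ko (SE 0.37, adjusted p = 0.0613, limma), with p = 0.0286 in a two-sided exact permutation test, the smallest that 4 mice against 4 can give. That test takes the 2 mice of an array as independent, and 12.5% of all genes were likewise without overlap in this direction. Without the weak array the log2 fold change was 1.28 (SE 0.22, adjusted p = 1.85e-05, limma), so *Ifitm3* was called there. Of its 10 spots, 9 were 1.01 to 1.57 higher in MRL/lpr 1 than in the 4 Cy3 mice of the other phenotypes and 0.75 to 1.44 higher in MRL/lpr 2 than in Fn14ko 2 and 4, while their neighbours' medians lay between -0.27 and 0.17. The tenth spot was 0.37 higher in Cy3 and 0.95 in Cy5, beside neighbours at 0.44 and 0.22. The probe lies on chromosome 7 from 148195591 to 148195650 (mm9, minus strand).

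*Bst2*, whose protein tethers budding virus to the cell, read 0.379, 0.188, 0.123 and 0.242 in MRL/lpr, 0.132, 0.159, 0.141 and 0.108 in mice labelled Fn14ko and 0.0864, 0.259, 0.108 and 0.211 in MRL/+. Both MRL/lpr 1 and 2 stood above all 4 labelled Fn14ko, whereas MRL/lpr 3 did not. The log2 fold change against Fn14ko was 0.69 (SE 0.69, adjusted p = 0.468, limma), and 1.00 (SE 0.37, adjusted p = 0.0943) without the weak array.

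The largest difference between MRL/lpr 1 and 2 and the mice labelled Fn14ko was that of *Ifi35*, which encodes a leucine zipper protein that pairs with NMI. It read 0.402, 0.957, 0.105 and 0.612 in MRL/lpr, 0.0469, 0.0791, 0.06 and 0.0965 in mice labelled Fn14ko and 0.0372, 0.356, 0.0448 and 0.308 in MRL/+. Every MRL/lpr mouse was above every mouse labelled Fn14ko, as for 12.5% of all genes. In MRL/lpr 3 and 4, however, the level was under the 95th percentile of negative controls (1.51 and 2.55). Over Fn14ko the log2 fold change was 2.54 (SE 0.78, adjusted p = 0.135, limma; two-sided exact permutation p = 0.0286), and 3.19 (SE 0.41, adjusted p = 5.74e-08) without the weak array. This is 1 spot, however, whose neighbours were raised on the same array too, by a median of 0.77 in Cy3 and 1.16 in Cy5, beside 3.11 and 3.45 for *Ifi35* itself, and 83% of them lay below it in each dye.

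*Nmi*, the partner of *Ifi35* and one of the further interferon-stimulated genes listed for comparison, read 0.186, 0.278, 0.226 and 0.642 in MRL/lpr, 0.0893, 0.0708, 0.106 and 0.0802 in mice labelled Fn14ko and 0.0611, 0.143, 0.0705 and 0.125 in MRL/+. Its MRL/lpr levels overlapped with neither of the other groups. Those of MRL/lpr 3 and 4 were under the 95th percentile of negative controls. *Nmi* was higher without the weak array by 1.41 against Fn14ko (adjusted p = 0.0176, limma) and by 1.28 against MRL/+ (adjusted p = 0.0309).

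*Isg20*, a 3′-5′ exonuclease of RNA, read 0.171, 0.21, 0.176 and 0.474 in MRL/lpr, 0.0676, 0.0625, 0.0767 and 0.049 in mice labelled Fn14ko and 0.0574, 0.179, 0.0483 and 0.136 in MRL/+. Its MRL/lpr and Fn14ko levels did not overlap. Against Fn14ko the log2 fold change was 1.89 (SE 0.77, adjusted p = 0.24, limma), and 1.59 (SE 0.45, adjusted p = 0.0156) without the weak array. Its 2 probes disagreed in size, with 2.37 for one and 0.59 for the other between MRL/lpr 1 and 2 and Fn14ko, and the spot of the first had neighbours raised by 1.42 in Cy3 and 1.80 in Cy5. *Rsad2*, which encodes viperin, read 0.0921, 0.0693, 0.266 and 0.372 in MRL/lpr and 0.0279 to 0.0469 in mice labelled Fn14ko, with a log2 fold change of 2.16 (SE 1.02, adjusted p = 0.293, limma), and its spot stood 1.62 above the other Cy3 mice where the neighbours' median was 0.00. *Lgals3bp*, a secreted galectin-binding protein, read 0.964, 0.766, 0.266 and 0.454 in MRL/lpr and 0.424 to 0.572 in mice labelled Fn14ko, so that MRL/lpr 1 and 2 were above and MRL/lpr 3 below all 4. It was higher by 0.78 (SE 0.24, adjusted p = 0.0249, limma) without the weak array and by 0.13 with it. The 2 probes of *Lgals3bp* differed, with 1.23 for one and 0.46 for the other between MRL/lpr 1 and 2 and Fn14ko. Over all 4 MRL/lpr mice they disagreed in sign, with 0.75 and -0.39.

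**Figure D5:**
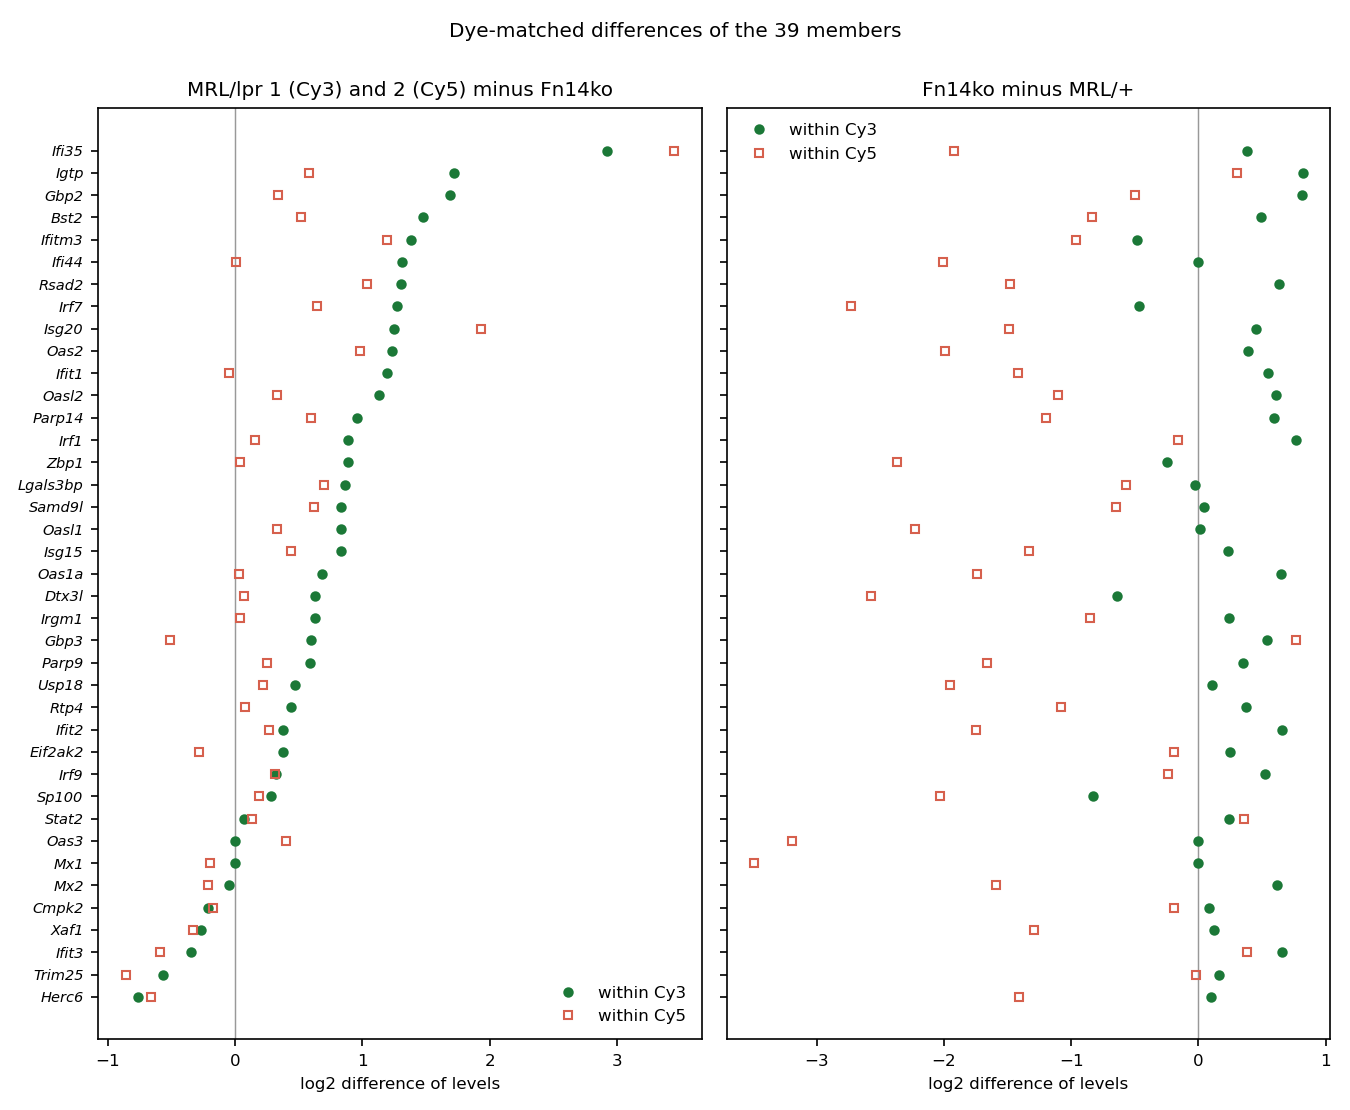
Dye-matched log2 differences of the 39 members (rows, ordered by the Cy3 difference on the left): MRL/lpr 1 and 2 minus the mean of the Fn14ko mice in the same dye (left), and the Fn14ko mean minus the MRL/+ mean (right); filled circles are within Cy3 and open squares within Cy5. On the left Ifi35 lies at 2.92 and 3.45 and Ifitm3 at 1.38 and 1.19, and on the right the medians are 0.25 in Cy3 and -1.33 in Cy5.

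Of the transcription factors of the panel, *Stat2*, the subunit of ISGF3 that activates transcription, read 0.56, 0.764, 0.48 and 0.456 in MRL/lpr, 0.437, 1.06, 0.647 and 0.461 in mice labelled Fn14ko and 0.488, 0.574, 0.417 and 0.515 in MRL/+. *Irf9*, the subunit that binds the ISRE, read 0.352, 0.304, 0.111 and 0.232, then 0.233, 0.24, 0.341 and 0.25, and then 0.203, 0.327, 0.189 and 0.257 in the same order. In both genes the 3 phenotypes overlapped, and the log2 fold changes against Fn14ko were -0.14 (SE 0.45) and -0.20 (SE 0.53). *Irf7*, the factor that amplifies IFN-α production, was dim everywhere, with 0.0278, 0.0301, 0.0299 and 0.255 in MRL/lpr, 0.0117, 0.0192, 0.0114 and 0.0193 in mice labelled Fn14ko and 0.0153, 0.144, 0.0166 and 0.113 in MRL/+. Every MRL/lpr mouse exceeded every Fn14ko mouse (log2 fold change 1.75, SE 1.29, adjusted p = 0.455, limma), and MRL/+ 2 and 4 exceeded MRL/lpr 1 to 3. *Irf1*, the factor of the interferon-γ arm, differed by 0.46 (SE 0.57) between MRL/lpr and Fn14ko.

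In the ISG15 system, *Isg15* itself read 0.147, 0.197, 0.96 and 1.54 in MRL/lpr, 0.0773, 0.147, 0.0884 and 0.143 in mice labelled Fn14ko and 0.0709, 0.438, 0.0704 and 0.304 in MRL/+. All 4 MRL/lpr levels were above those of Fn14ko, MRL/lpr 1 over Fn14ko 2 by less than the last digit shown, and within each dye MRL/lpr 1 and 2 were above the Fn14ko mice, by 0.83 and 0.44. Against Fn14ko the log2 fold change was 2.05 (SE 0.77, adjusted p = 0.206, limma), and 0.64 (SE 0.38, adjusted p = 0.505) without the weak array. *Usp18*, the protease that removes ISG15, read 0.0445, 0.0425, 0.0797 and 0.223 in MRL/lpr, 0.0279, 0.0337, 0.0369 and 0.0392 in mice labelled Fn14ko and 0.0346, 0.179, 0.0255 and 0.11 in MRL/+, with all 4 MRL/lpr mice above Fn14ko. *Herc6*, the main ligase for ISG15 in the mouse, went the other way in MRL/lpr 1 and 2, with 0.0221 and 0.0321 in MRL/lpr 1 and 2 and 0.0352 to 0.0531 in mice labelled Fn14ko, and neither *Usp18* (adjusted p = 0.455) nor *Herc6* (adjusted p = 0.778, limma) passed the test. In MRL/lpr 1 and 2 the levels of *Irf7*, *Usp18* and *Herc6* were under the 95th percentile of that array's negative controls (0.0555 and 0.108).

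*Ifit3*, the IFIT protein that stabilises IFIT1 on RNA, read 0.265, 0.231, 0.127 and 0.2 in MRL/lpr, 0.343, 0.361, 0.33 and 0.336 in mice labelled Fn14ko and 0.24, 0.314, 0.188 and 0.228 in MRL/+. The Fn14ko mice were above every mouse of both other phenotypes (4.95% of all genes against MRL/lpr and 2.26% against MRL/+). The levels of MRL/lpr 3 and 4 were under the 95th percentile of negative controls (1.51 and 2.55). The log2 fold change of MRL/lpr against Fn14ko was -0.78 (SE 0.46, adjusted p = 0.404, limma; two-sided exact permutation p = 0.0286), and that of Fn14ko against MRL/+ 0.52 (SE 0.46, adjusted p = 0.651; exact permutation p = 0.0286). *Trim25*, the ubiquitin ligase that activates the RNA sensor RIG-I, read 0.607 and 0.952 in MRL/lpr 1 and 2 but 2.88 and 4.59 on the weak array, 0.877, 1.75, 0.923 and 1.71 in mice labelled Fn14ko and 0.675 to 1.78 in MRL/+. It was 0.71 lower on the log2 scale than Fn14ko without the weak array (SE 0.22, adjusted p = 0.0245, limma) and 0.41 higher with it, so its direction rests on that array. Its 2 probes disagreed, with -0.81 for one and -0.05 for the other between MRL/lpr 1 and 2 and Fn14ko. The second probe read 0.242 and 0.148 in MRL/lpr 1 and 2 and 0.125 to 0.171 in MRL/+, so it was not lower there.

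Of the RNA-binding synthetases and kinase, *Oasl2* read 0.128, 0.0907, 0.14 and 0.363 in MRL/lpr, 0.0518, 0.0683, 0.0667 and 0.0761 in mice labelled Fn14ko and 0.0394, 0.189, 0.0375 and 0.126 in MRL/+. All MRL/lpr levels were above those of Fn14ko, with a log2 fold change of 1.26 (SE 0.85, adjusted p = 0.455, limma). *Eif2ak2*, the kinase PKR that stops translation on double-stranded RNA, read 0.102, 0.0999, 0.114 and 0.158 in MRL/lpr, 0.074, 0.0977, 0.0825 and 0.151 in Fn14ko and 0.0768, 0.162, 0.0566 and 0.118 in MRL/+, and the 3 phenotypes overlapped. *Rtp4*, a chaperone of receptors that is induced by interferon, read 0.125, 0.0926, 0.133 and 0.268 in MRL/lpr, 0.0813, 0.091, 0.104 and 0.0838 in Fn14ko and 0.0743, 0.192, 0.0677 and 0.176 in MRL/+. Its MRL/lpr and Fn14ko ranges met at MRL/lpr 2, and the log2 fold change was 0.67 (SE 0.73, adjusted p = 0.492).

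Among the GTPases, *Gbp2*, which coats vacuoles that hold pathogens, read 0.202, 0.136, 0.365 and 0.389 in MRL/lpr, 0.0598, 0.149, 0.0652 and 0.0772 in mice labelled Fn14ko and 0.0334, 0.167, 0.0377 and 0.138 in MRL/+. Of these, MRL/lpr 2 fell inside both other ranges. The log2 fold change was 1.61 against Fn14ko (SE 0.83, adjusted p = 0.329, limma) and 1.77 against MRL/+ (SE 0.83, adjusted p = 0.414). *Igtp*, an immunity-related GTPase of the interferon-γ arm, read 0.393, 0.256, 0.122 and 0.901 in MRL/lpr, 0.0945, 0.273, 0.151 and 0.108 in Fn14ko and 0.0682, 0.162, 0.0672 and 0.12 in MRL/+. MRL/lpr 1 and 2 were above all 4 MRL/+ mice and MRL/lpr 3 was inside their range, and the difference of 1.74 against MRL/+ (SE 0.80, adjusted p = 0.40, limma) was not called. It was called without the weak array, at 1.71 (SE 0.38, adjusted p = 0.00121, limma), among 10.3% of all genes. It was also called without MRL/lpr 2 alone (31.1% of all genes), without MRL/lpr 3 alone (1.82%), and with sample weights (51.5%).

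Compared with MRL/+, the reading depended on the dye. In Cy3, MRL/lpr 1 was above MRL/+ 1 and 3 for 31 of 39 members, among 36.3% of all genes, and at least 2-fold above for 16, among 9.04% of all genes. In Cy5, where 30 and 31 members of the MRL/+ mice were at or below the 95th percentile of negative controls, MRL/lpr 2 was above MRL/+ 2 and 4 for 6 members, among 12.7% of all genes. The median member difference was 0.86 in Cy3 and -0.88 in Cy5, beside 0.00 and -1.39 for all genes. The 4 MRL/lpr mice were above all 4 MRL/+ mice for 0 members (1.74% of all genes) and below for 0 (5.92%). Without the weak array 3 members were called, among 10.3% of all genes: *Ifi35* at 2.41 (SE 0.41, adjusted p = 1.6e-05, limma) and *Igtp* higher (3.81% of all genes), and *Trim25* lower (6.49%) at -0.64 (SE 0.22, adjusted p = 0.0422).

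Between the mice labelled Fn14ko and MRL/+, which differ in *Fas* as well as in *Tnfrsf12a* and in their source, the members followed the dye still more closely. In Cy3, both Fn14ko mice were above both MRL/+ mice for 20 members (16.8% of all genes) and below for 4 (17.8%). In Cy5 they were above for 1 (8.40%) and below for 30 (82.8%). Over all 4 mice, *Ifit3* was higher without overlap (2.26% of all genes), and *Dtx3l*, a ubiquitin ligase that pairs with PARP9, and *Sp100*, a nuclear body protein, were lower (8.41%). Without the weak array, which belongs to neither phenotype but enters the shared estimate of the spread, *Ifitm3* at -0.72 (SE 0.18, adjusted p = 0.00301, limma) and *Sp100* at -1.43 (SE 0.40, adjusted p = 0.00917) were called, among 12.5% of all genes (9.08% lower and 3.46% higher). *Ifitm3* was lower in Fn14ko within each dye, by -0.48 in Cy3 and -0.96 in Cy5, and *Sp100* by -0.83 and -2.03. The medians of all genes were 0.00 in Cy3 and -1.77 in Cy5, so in Cy5 *Ifitm3* was lowered less than the median gene. The *Sp100* levels of MRL/+ 2 and 4 (0.262 and 0.204) were under the 95th percentile of negative controls there (0.309 and 0.23). The 3 comparisons share their samples in pairs, so a low Fn14ko value enters more than 1 of them.

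The rest of the pathway was looked at with a list of 22 interferons, receptors, kinases, factors and inhibitors, and the further targets with a list of 33 interferon-stimulated genes. In the fit of all 12 mice 0 of 22 and 0 of 33 were called in each comparison, and every listed gene but *Ifnb1*, *Ddx60* and *Oas1g* was well above background in at least 1 mouse. With that array left out 3 of 22 pathway genes were higher against Fn14ko (5.46% of all genes) and 0 lower (2.46%): *Ifna1*, which encodes an IFN-α, *Ifngr2*, a chain of the interferon-γ receptor, and *Ptpn2*, a phosphatase that dampens JAK and STAT signalling. *Ifna1* read 0.286, 0.81, 0.105 and 0.187 in MRL/lpr, 0.0299, 0.049, 0.0391 and 0.0591 in mice labelled Fn14ko and 0.0361, 0.251, 0.0427 and 0.239 in MRL/+, from 1 spot. Against MRL/+ 3 pathway genes were higher (3.81% of all genes) and 1 lower (6.49%). Of the 33 further targets 3 were higher (*Nmi*, the immunoproteasome subunit *Psmb8* and *Ifi27l2a*) and *Psmb10* lower against Fn14ko, and against MRL/+ 3 were higher (*Nmi*, *Ifi27l2a*, *Oas1b*) and 2 lower (*Gbp5*, *Psmb10*). The median log2 fold change against Fn14ko without that array was 0.11 for the pathway list and 0.49 for the further targets, beside 0.42 for the panel and 0.00 for all genes.

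Markers of other cells moved on the same array as the members. The summed level of 7 choroid plexus markers was 11.8 to 37.9 in MRL/lpr 1 and 2, compared with 0.574 to 5.47 in mice labelled Fn14ko and 0.98 to 2.52 in MRL/+. Without the weak array 6 of the 7 were higher against Fn14ko (5.46% of all genes) and 6 against MRL/+ (3.81%). *Ttr*, the transthyretin of the choroid plexus, read 2.13 to 33.4 in MRL/lpr and at most 4.61 in the other 8 mice. For 6 markers of B cells and plasma cells the sum was 0.702 to 1.42 in MRL/lpr 1 and 2, 0.0964 to 0.145 in Fn14ko and 0.104 to 0.928 in MRL/+. Without the weak array 1 of the 6 was higher against Fn14ko (5.46% of all genes) and 1 against MRL/+ (3.81%). The median log2 fold change of the 6 was then 0.74 against Fn14ko and -0.58 against MRL/+. *Jchain* read 0.563 or more in MRL/lpr 1 and 2 and at most 0.0457 in Fn14ko, while *Ms4a1* and *Pax5* were not well above background in any mouse. The sum of 7 T cell markers was 1.23 to 2.08 in MRL/lpr 1 and 2, 0.737 to 1.04 in Fn14ko and 1.44 to 3.58 in MRL/+, and that of 8 microglial markers 7.54 to 9.78, 8.29 to 9.90 and 9.96 to 14.2. Their part in the levels of *Ifitm3*, *Ifi35* and the other members was not tested. In these bulk samples fewer cells of a type and less RNA per cell cannot be told apart.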

How the data were processed

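Hippocampal RNA of 12 mice was profiled on 6 two-colour Agilent arrays. The files deposited by the authors hold, for each spot and dye, a foreground and a background intensity on a linear scale from Agilent Feature Extraction, not normalized between channels, with outlier flags and probe positions in mm9. No column of the authors' own comparisons was used.

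Local background was subtracted, flagged spots were left out, and every channel was scaled to the median of the 10877 spots with a foreground of at least 2 times background and no flag in all 12 samples. Levels under 1% of that median were set to 1% of it. Spots of a probe and then probes of a gene were averaged, and log2 levels were fitted with limma 3.58.1 (R 4.3.3, statmod 1.5.0) over all 12 samples, with phenotype, dye, and array as a random block, eBayes with a trend, and Benjamini-Hochberg adjustment over 29608 genes at 0.05. Of the 39 members, 15 have several probes. The exact permutation test (two-sided, 4 mice against 4) treats the mice as independent, although 2 share each array. The limma code was tested on simulated data. Python 3.11.15 with numpy 2.4.6, pandas 2.3.3, scipy 1.17.1 and matplotlib 3.10.9 did the rest.

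The members and lists were chosen with earlier results of these data known. Values in every mouse are given for members called in the fit of all 12 mice, members whose MRL/lpr and MRL/+ mice do not overlap (there were none of either), *Tnfrsf12a* and 13 members fixed by name (*Ifit1*, *Ifit3*, *Isg15*, *Irf7*, *Irf9*, *Oasl2*, *Usp18*, *Stat2*, *Bst2*, *Rtp4*, *Gbp2*, *Eif2ak2*, *Ifitm3*). Any other gene with its values was chosen after its values were seen, apart from listed genes past the threshold. Some results under this rule are not given here. The signal over background and the number of arrays limit the precision. Replicate numbers were not taken to pair the mice. The deviations of same-numbered mice correlated between -0.68 and 0.761 over 12 pairs. Such mice share a dye, so these correlations cannot decide whether they are paired. Alternatives in the spots, background correction, normalization, floor, dye, array block, sample weights and test, and each mouse or the weak array left out, were tried.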

Additional observations from a re-analysis of the deposited data

Results flagged for a closer look

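Of 117 sets of 4 mice (39 members in 3 phenotypes), 5 had a mouse whose gap to the nearest of the others exceeded Dixon's 95% critical value for 4 values, which chance alone does in about 1 of 20 such sets. *Irf7* was highest in MRL/lpr 4, with a gap of 0.965 of the range. *Mx1* was highest in Fn14ko 4 (gap of 1 of the range), where the other mice were at the floor. *Cmpk2* and *Parp9* were highest in Fn14ko 3 (0.881 and 0.922), and *Dtx3l* was lowest there (0.979).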

How the results depend on the processing

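In the fit of all 12 mice no member was called, and this held under another channel median, quantile normalization, normexp background, processed signals, a floor of 5%, spots with an outlier flag kept, the brightest probe, the median over the spots of a probe, no dye covariate, each dye alone and the methods' spot filter (which leaves 11 members). It changed with the weak array, the array block, sample weights and MRL/lpr 2, and the cause was not tested. Shares of all genes called stand in parentheses. Between MRL/lpr and MRL/+ the members called were 20 without the weak array with the array block (70.8%), 3 without that block (10.3%), 13 of 35 under the spot filter over 10 samples (36.0%), 6 in Cy3 alone without that array (8.51%), and 20 with sample weights (51.5%). Between MRL/lpr and Fn14ko they were 16 (22.2%), 5 (7.92%), 8 (17.2%), 5 (7.7%) and 34 (82.6%) in the same order, and 3 without the array block (6.03%). Between Fn14ko and MRL/+ they were 23 (78.5%), 2 (12.5%), 11 (47.4%), 0 (0.0271%) and 15 (66.5%). The methods' t-test at an unadjusted p called 1, 2 and 1 members (7.77%, 7.34% and 7.82%), and 0, 0 and 0 after adjustment. With the replicate number as a block (mice not taken as paired) 0, 3 and 0 members were called (3.24%, 5.45% and 0.108%). Leaving out 1 mouse at a time gave 0 to 19, 0 to 31 and 0 to 0 members, and medians from 0.33 to 1.13, from 1.01 to 2.09 and from -0.82 to -0.14. Without MRL/lpr 2 the counts were 19 (31.1%) and 31 (78.5%), without MRL/lpr 3 they were 2 (1.82%) and 2 (2.74%), and without MRL/lpr 4 they were 0 (1.77%) and 2 (1.91%). The median log2 fold change of the members against Fn14ko was 0.42 without the weak array, 0.48 under the spot filter over 10 samples, 0.68 in Cy3 without that array, 0.78 with a floor of 5%, -0.05 with the median of all spots, -0.04 with quantile normalization and 2.51 with sample weights. Between Fn14ko and MRL/+ it was 0.47 with the median of all spots, 0.34 with quantile normalization, 0.25 in Cy3 with or without the weak array and -1.33 in Cy5.

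Without the weak array 16 members changed sign against MRL/+ and 8 against Fn14ko. Those that also passed the test under some such setting were, against MRL/+, *Irf9* at 0.46, *Lgals3bp* at 0.48, *Xaf1* at -0.89 (-0.82 under the spot filter), *Zbp1* at -0.85, *Sp100* at -1.19 (from 0.00) and *Trim25* at -0.64, and, against Fn14ko, *Trim25* at -0.71. Leaving out the weak array together with the array block, with the Cy5 samples or with the dim spots, and the median over spots, were chosen after seeing the data. Low signal over background limits the dim members most, among them *Mx1*, *Oas3*, *Ifi44* and *Irf7*.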

Other observations

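Some listed genes were far higher on the weak array than on the other MRL/lpr array, and others were not. *Ifng*, the gene of interferon-γ and one of the 22 pathway genes, read 2.93 and 4.75 in MRL/lpr 3 and 4, 0.0398 and 0.0506 in MRL/lpr 1 and 2, 0.01 to 0.0113 in mice labelled Fn14ko, and 0.01, 0.0978, 0.01 and 0.0512 in MRL/+. *Otx2*, a factor of the choroid plexus, read 0.319, 0.177, 5.07 and 10.7 in MRL/lpr and at most 0.134 in the other 8 mice, whereas *Ttr*, *Folr1*, *Kl* and *Clic6*, 4 of the 7 choroid plexus markers, differed by -2.66 to -1.57 on the log2 scale between the weak and the other MRL/lpr array. *Gfap*, the intermediate filament of astrocytes, was the only gene of the marker lists called in the fit of all 12 mice, with 2.12, 2.34, 1.93 and 2.43 in MRL/lpr and 0.734, 0.315, 0.688 and 0.389 in MRL/+. These genes were chosen after their values were seen.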
